A study of Mus musculus with 4 samples.

Results

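Notch signalling and the early, double-negative stages of thymocyte development are represented here by 9 genes, Notch1, Notch3, Hes1, Dtx1, Ptcra, Il2ra, Il7r, Kit and Spry1. They were chosen by symbol from what they are known to do and make up 9 of the 22730 gene symbols in the expression tables. All 9 passed the filter on low counts, which left 13733 genes for testing, and all 9 also have exon-exon junctions in the junction tables. RNA was taken from total thymocytes of 2 hnRNP L knockout (KO) mice and 2 wild-type mice, with 1 library per mouse. hnRNP L is an RNA-binding protein that regulates pre-mRNA splicing. Ribosomal RNA was depleted and the libraries were sequenced on the SOLiD platform. The genotype label of the tested mice is hnRNP L KO and that of the others is wild type. Both genotypes carry 1 and the same background label, a mix that names CD45.1, C57BL/6, an LckCre transgene and the fluorescent reporter Gt(ROSA)26Sortm4(ACTB-tdTomato,-EGFP)Luo. LckCre expresses the Cre recombinase from the Lck promoter, which is active in thymocytes, so cells of other lineages in the organ lie outside its range. The sources used here do not give the Cre status of each mouse, the deleted part of Hnrnpl, or the age and sex of the animals.

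Notch receptors sit on the thymocyte surface and are cleaved when a ligand on the thymic epithelium binds them. The freed intracellular part enters the nucleus, joins the DNA-binding protein Rbpj (CSL) and switches on target genes. In the thymus this signal commits progenitors to the T lineage and carries them through the double-negative stages, where cells have neither CD4 nor CD8. Kit marks the earliest of these stages, CD25 (Il2ra) the middle ones, and the pre-T cell receptor, which contains the Ptcra product, tests the rearranged T cell receptor beta chain at their end. Cells that pass become double-positive thymocytes, the bulk of the organ, and lower most of these genes.

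The libraries of KO replicates 1 and 2 held 27548691 and 28677525 reads assigned to genes, against 41775795 and 51544712 in wild-type replicates 1 and 2. Hnrnpl itself had 467 and 208 CPM (scaled counts per 1000000 reads) in the KO libraries and 854 and 813 CPM in the wild types, so that 56.0% of the level of wild type remained in KO replicate 1 and 25.001% in KO replicate 2. Its edgeR log2 fold change was -1.303 (SE 0.42), with an adjusted p of 0.486. KO replicate 1 also stood apart by sex, holding 4116 reads of Ddx3y, which lies on the Y chromosome, where no other library had more than 17. Wild-type replicate 1 stood apart in RNA composition, with 8.23% of its gene reads on small RNA genes and their hosts, against 1.14 to 2.14% in the other libraries. Double-positive thymocyte markers, led by Rag1, summed to 17530 and 13160 CPM in KO and to 17521 and 17004 CPM in wild type, so the markers of the labelled tissue were abundant in all 4 libraries. Such sums do not measure shares of cells. In such bulk RNA, fewer cells of a stage and less RNA per cell cannot be told apart. The deposited labels describe separate mice, and with 2 per group an exact two-sided permutation test of a single value cannot go below p = 0.333.

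No change of any of the 9 genes between KO and wild type passed the test. By edgeR's quasi-likelihood test 0 of the 9 had an adjusted p under 0.05, where 0.00728% of all tested genes did, and DESeq2 (0.786% of all genes) and limma-voom (0%) also called 0 of them. At an unadjusted p under 0.05 edgeR named 1 of the 9, Dtx1, where 9.91% of all genes were named. Fold changes were positive for 6 and negative for 3, and their median on the log2 scale was 0.07, against 0.01 over all tested genes. The groups were separate for 2 members, Dtx1 and Spry1, both with the KO libraries below the wild types, a relation shown by 21.4% of all genes. None of the 9 had both KO libraries above both wild types, where 23.3% of all genes did.

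On the log2 scale most members differed more between the mice of 1 group than between the groups. Dtx1 was an exception, at -0.64 between the groups against 0.37 within KO and 0.56 within wild type. KO replicate 2 exceeded KO replicate 1 for 8 of the 9 genes, Il7r being the exception, where 49.1% of all genes did so. The ratio reached 1.5 for 4 of them, Notch1, Notch3, Hes1 and Il2ra, where 11.1% of all genes reached it. Wild-type replicate 2 exceeded wild-type replicate 1 for 7 of the 9, all but Hes1 and Spry1, where 49.9% of all genes did so, and by 1.5 times or more only for Notch3 (4.22% of all genes). Wild-type replicate 1, the lower for those 7, is the library with the most small RNA reads, and the part of this in the ratios was not tested. The lowest of the 4 libraries was KO replicate 1 for 7 of the 9 genes, where 20% of all genes had their minimum there. On the log2 scale the median ratio of KO replicate 2 to KO replicate 1 was 0.58 over the members and -0.01 over all genes, and that of wild-type replicate 2 to wild-type replicate 1 was 0.28 over the members and 0.00 over all genes. These ratios are descriptions of single mice and carry no test. KO replicate 1 also had more Hnrnpl RNA than KO replicate 2 and differed from it in sex, and the part of either in these ratios was not tested.

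**Figure D1:**
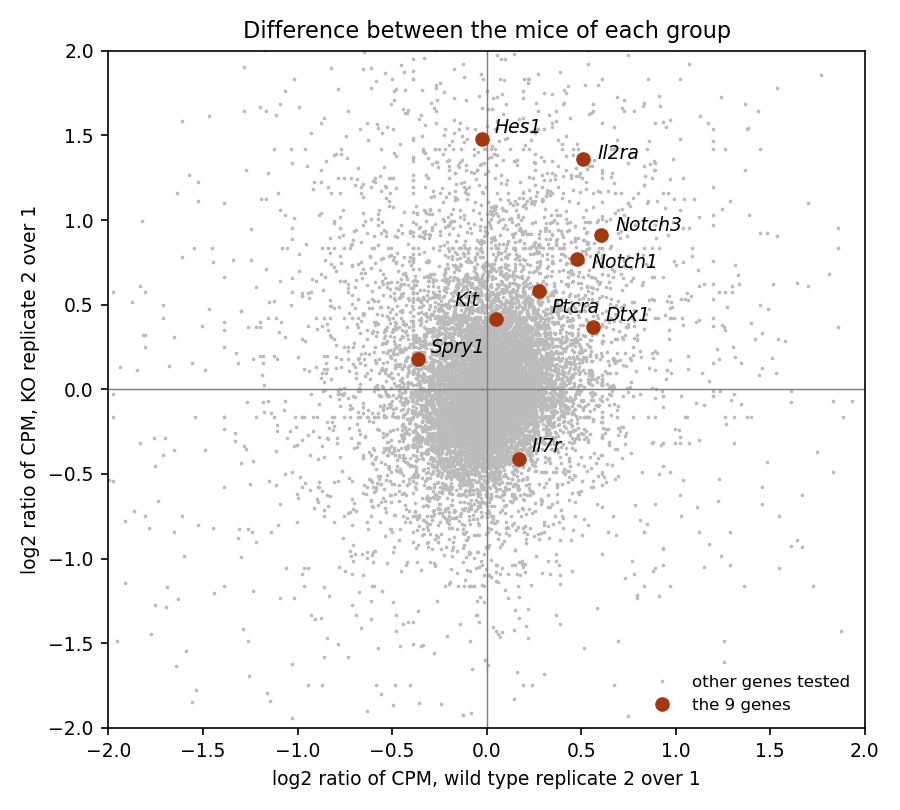
Each grey point is 1 of 13724 genes with reads in all 4 libraries, with the log2 ratio of wild-type replicate 2 to wild-type replicate 1 across and of KO replicate 2 to KO replicate 1 upward. The axes end at 2 in either direction, which leaves out 303 genes, and 8 of the 9 labelled members lie above 0 on the KO axis.

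Levels per length place the 9 genes in an upper and a lower group. The scale is RPKM, the reads per 1000000 mapped reads divided by transcript length in kilobases. In KO the order of the means was Notch1 (18.8), Ptcra (17.1), Il2ra (11.8), Il7r (9.43), Notch3 (3.48), Kit (1.94), Dtx1 (1.81), Hes1 (1.77) and Spry1 (1.12). The values of Il7r and Notch3 did not overlap in KO, nor did those of Notch3 and Kit, while all other neighbours in this order overlapped. In wild type the order was Ptcra (16.3), Notch1 (15.1), Il2ra (10.7), Il7r (8.37), Notch3 (3.56), Dtx1 (2.81), Kit (1.84), Hes1 (1.46) and Spry1 (1.35). There the neighbours without overlap were Il7r and Notch3, Dtx1 and Kit, and Kit and Hes1. The 4 most abundant genes thus stood above the other 5 in both genotypes.

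**Figure D2:**
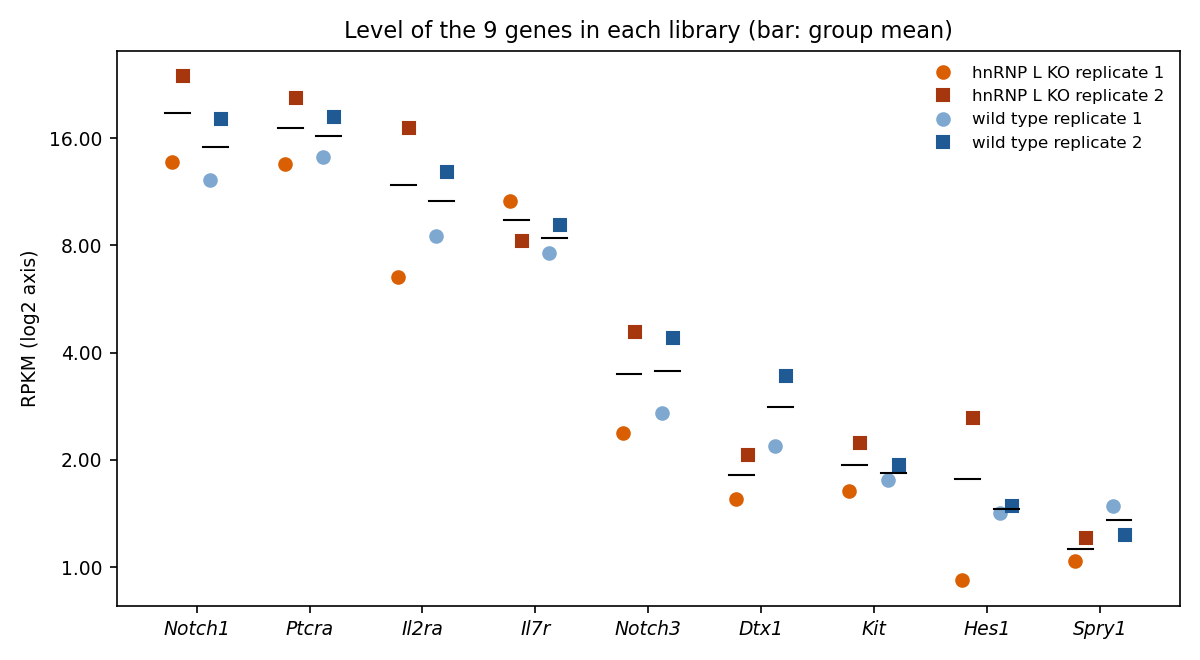
RPKM of each member on a log axis, with 1 point per library, KO libraries to the left of wild types and bars at the group means. The 2 points of a group are often as far apart as the groups are, as for Il2ra, at 6.51 and 17.1 in KO and 8.50 and 12.9 in wild type.

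Of the 2 member receptors, Notch1, which drives T lineage commitment, was the more abundant (mm9 chromosome 2, 26313422 to 26359342, minus strand). It had 325 and 554 CPM in KO replicates 1 and 2, against 296 and 413 CPM in wild-type replicates 1 and 2. KO replicate 2 was the highest library and wild-type replicate 1 the lowest, and the groups overlapped. The log2 fold change was 0.31 (SE 0.30, edgeR adjusted p = 0.711). It was 0.64 without KO replicate 1 and -0.12 without KO replicate 2, so its sign rested on KO replicate 2. KO replicate 2 had 1.70 times the CPM of KO replicate 1 (95% counting interval 1.66 to 1.75), and wild-type replicate 2 had 1.39 times that of wild-type replicate 1 (1.36 to 1.43). Counting error was thus far smaller than the distance between mice of 1 genotype. Such intervals take in counting error alone, and PCR copies of a molecule count separately in them.

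Notch3, a second thymocyte Notch receptor that is most abundant before the double-positive stage (mm9 chromosome 17, 32257838 to 32303797, minus strand), had 47.3 and 88.7 CPM in KO and 55.3 and 84.1 CPM in wild type. The KO libraries were both the lowest and the highest of the 4, enclosing the wild types. Its log2 fold change was -0.04 (SE 0.43, edgeR adjusted p = 0.981), and it was 0.34 without KO replicate 1, -0.56 without KO replicate 2 and 0.30 without wild-type replicate 2. Under upper-quartile scaling the sign turned, with a log2 fold change of 0.027. In both genotypes replicate 2 was higher, 1.88-fold in KO (counting interval 1.76 to 2.01) and 1.52-fold in wild type (1.44 to 1.60). Notch2, a receptor that is not a member, had 87.2 and 101 CPM in KO and 81.7 and 104 CPM in wild type. That is more than Notch3 had in each library.

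Of the direct Notch targets, Dtx1 came closest to a difference between the genotypes. Dtx1 (mm9 chromosome 5, 121130273 to 121161678, minus strand) encodes Deltex-1, an E3 ubiquitin ligase that acts on Notch receptors. It had 14.5 and 18.7 CPM in KO, against 20.8 and 30.7 CPM in wild type, which rest on 400, 578, 810 and 1568 reads. Both KO libraries lay below both wild types. The mean was 16.6 ± 2.96 CPM in KO and 25.8 ± 7.02 CPM in wild type (SD, n = 2 each). The KO level was 0.643 of the wild-type level, a log2 fold change of -0.64 (SE 0.22), with an unadjusted edgeR p of 0.0213 and an adjusted p of 0.470. The direction was the same with any 1 library left out, from -0.88 to -0.32.

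Hes1, a transcriptional repressor and classical Notch target (mm9 chromosome 16, 30065443 to 30067882, plus strand), was the most uneven between the KO mice. It had 3.33 and 9.27 CPM in KO, from 92 and 287 reads, and 5.29 and 5.19 CPM in wild type, from 206 and 265 reads. The wild types were nearly equal, at a ratio of 0.982 (counting interval 0.815 to 1.18), while KO replicate 2 had 2.78 times the CPM of KO replicate 1 (2.19 to 3.56). The log2 fold change was 0.27 (SE 0.46, edgeR adjusted p = 0.843). It became 0.82 without KO replicate 1 (unadjusted p = 0.00464, adjusted p = 0.0758) and -0.65 without KO replicate 2 (unadjusted p = 0.0301, adjusted p = 0.5998). In these fits the lone KO library is assumed to vary as the wild types do. The KO mice therefore lay on opposite sides of the wild types.

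Ptcra encodes the pre-T cell receptor alpha chain, which pairs with the beta chain before the alpha locus rearranges (mm9 chromosome 17, 46892612 to 46900661, minus strand). The core of the motif that Rbpj binds is TGGGAA, and a search of both strands (TGGGAA and TTCCCA) in the RefSeq promoters, from 250 bases before to 50 after each start, found it in 25.6% of 32851 promoters. Of the 8 members with an entry, 1 held it, Ptcra, with matches starting at -84 and -32 relative to the start. Hes1 had no entry, so its promoter was not searched. Those letters are a description of the sequence and not a mapped site. The 100 bases before the start, read on the minus strand in build GRCm38.p6 (chr17:46763713-46763812), are shown because they hold both matches, in capitals.
Ptcra upstream sequence: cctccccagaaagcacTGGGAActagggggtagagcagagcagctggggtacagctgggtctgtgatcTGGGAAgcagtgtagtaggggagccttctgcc

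Ptcra had 43.4 and 65.0 CPM in KO and 46.6 and 56.6 CPM in wild type. KO libraries were again the lowest and the highest. Its log2 fold change of 0.07 (SE 0.20, edgeR adjusted p = 0.911) became 0.33 without KO replicate 1, -0.25 without KO replicate 2 and -0.057 without wild-type replicate 1.

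Il2ra, the alpha chain of the IL-2 receptor (CD25) and another Notch target in early thymocytes (mm9 chromosome 2, 11564419 to 11614821, plus strand), had 72.1 and 185 CPM in KO and 96.4 and 137 CPM in wild type. As with Hes1, the KO libraries enclosed the wild types. KO replicate 2 had 2.57 times the CPM of KO replicate 1 (counting interval 2.44 to 2.70), and wild-type replicate 2 had 1.42 times that of wild-type replicate 1 (1.37 to 1.48). The log2 fold change was 0.14 (SE 0.61, edgeR adjusted p = 0.9502), the largest standard error among the members. Leaving out KO replicate 1 gave 0.66 (adjusted p = 0.187) and leaving out KO replicate 2 gave -0.70 (adjusted p = 0.639), while without wild-type replicate 1 it was -0.087 (adjusted p = 0.999).

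Il7r, the IL-7 receptor alpha chain on which early thymocytes depend for survival (mm9 chromosome 15, 9435914 to 9459631, minus strand), was the 1 member whose level in KO replicate 1 exceeded that in KO replicate 2. It had 85.4 and 64.3 CPM in KO and 62.6 and 70.5 CPM in wild type. Its ratio of KO replicate 2 to KO replicate 1 was 0.752 (counting interval 0.709 to 0.799). Besides double-negative cells, mature thymocytes express Il7r. The markers of mature single-positive cells other than Il7r summed to 867 and 568 CPM in KO and to 899.7 and 883 CPM in wild type. Of these 6 markers 0 were higher in KO replicate 2 than in KO replicate 1, where 49.1% of all genes were. The part of mature cells in the Il7r values was not tested. The log2 fold change was 0.17 (SE 0.15, edgeR adjusted p = 0.690), 0.36 without KO replicate 2 and -0.057 without KO replicate 1.

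Kit, the receptor for stem cell factor and the marker of the earliest thymic progenitors (mm9 chromosome 5, 75971012 to 76052746, plus strand), had 21.2 and 28.3 CPM in KO and 23.3 and 24.1 CPM in wild type. The wild types lay between the KO libraries. For Kit the log2 fold change was 0.06 (SE 0.17, edgeR adjusted p = 0.906), 0.25 without KO replicate 1 and -0.16 without KO replicate 2. Mast cells also express Kit. Of their markers 1, Cpa3, passed the filter, at 6.81 and 12.8 CPM in KO and 11.4 and 12.0 CPM in wild type, while Mcpt4, Cma1, Fcer1a, Ms4a2 and Tpsb2 had between 0 and 13 reads in any library.

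Spry1, which encodes a Sprouty inhibitor of receptor tyrosine kinase and Ras signalling (mm9 chromosome 3, 37538872 to 37543521, plus strand), was the least abundant member per length. It had 6.48 and 7.33 CPM in KO and 9.45 and 7.35 CPM in wild type. The groups were separate by the margin between 7.33 in KO replicate 2 and 7.35 in wild-type replicate 2. Spry1 had a log2 fold change of -0.28 (SE 0.21, edgeR adjusted p = 0.633), between -0.45 and -0.08 with any 1 library left out. The counting interval of the ratio of KO replicate 2 to KO replicate 1 (0.926 to 1.38) includes 1.

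**Figure D3:**
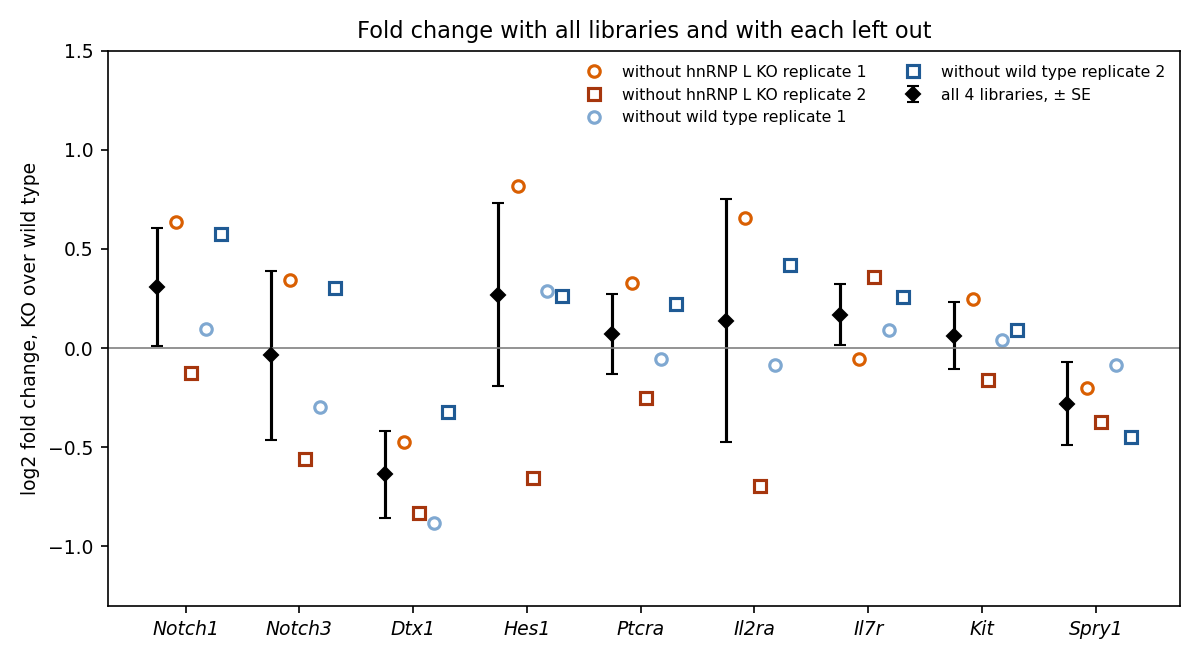
Filled points give the log2 fold change of KO over wild type for each member with its standard error, and open symbols the values with 1 library left out. Dtx1 and Spry1 stay below 0 throughout, while for the other 7 members the sign differs between the fit without KO replicate 1 and that without KO replicate 2.

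With KO replicate 1, KO replicate 2, wild-type replicate 1 or wild-type replicate 2 left out, 0 members passed the adjusted edgeR threshold, where 2.73%, 0.0914%, 0.0144% and 0.331% of all genes did. At an unadjusted p under 0.05, leaving out KO replicate 1 named 3 members (Notch1, Hes1 and Il2ra, where 23.6% of all genes were named), and leaving out KO replicate 2 named 4 (Dtx1, Hes1, Il2ra and Il7r, where 7.75% were). Without wild-type replicate 1 the count was 1, Dtx1 (3.11% of all genes), and without wild-type replicate 2 it was 0 (6.03%). Hes1 and Il2ra thus appear in both KO fits with opposite signs.

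Splice junctions gave another count of the same RNAs, since each junction read crosses a spliced exon border. It comes from the same libraries and mice, so it is not independent of the gene counts. The 9 genes have 117 known junctions in the tables, 115 of them with reads, and 12030 known junction reads in all. Dtx1 had 6.36 and 9.67 known junction reads per 1000000 junction reads (junction CPM) in KO, against 17.02 and 20.5 in wild type, a ratio of group means of 0.427. These values rest on 21 and 34 reads in KO and 81 and 126 reads in wild type. Both KO libraries were below both wild types here too. The share of all genes with that relation in junction CPM is not given here. Il2ra had 72.1 and 194.01 junction CPM in KO and 97.1 and 141 in wild type, a ratio of 1.12, with the KO libraries once more outside the wild types. Hes1 had 1.21 and 5.405 junction CPM in KO and 5.67 and 3.74 in wild type, from 4, 19, 27 and 23 reads. At these depths Hes1 and Spry1, with 2 and 0 junction reads in KO and 10 and 1 in wild type, gave too few reads to compare.

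The remaining members with enough junction reads overlapped between the genotypes. Notch1 had 307 and 504 junction CPM in KO and 263 and 373 in wild type, and its ratio of means was 1.27. Notch3 had 51.5 and 94.7 in KO and 61.1 and 78.9 in wild type (1.04). The ratio of means was 0.875 for Ptcra, 1.08 for Il7r and 1.34 for Kit. Kit had 17.6 and 27.0 in KO and 15.1 and 18.1 in wild type, with KO replicate 2 the highest and the groups overlapping.

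Whether any junction was used differently relative to the rest of its gene was tested for 101 member junctions in 8 genes, all but Spry1, among 95139 junctions in 9475 genes. Of the member junctions 0 passed by edgeR's diffSpliceDGE (0.0042% of all junctions passed) and 0 by limma-voom, and 1 had an unadjusted p under 0.05 (2.55% of all). That was the eighth known junction of Dtx1 in transcript order (mm9 chromosome 5, 121132219 to 121132313), with 6 and 10 reads in KO and 6 and 15 reads in wild type. Its usage was higher in KO by 1.53 on the log2 scale (unadjusted p = 0.0309, adjusted p = 0.999992). Its reads per library were close in number while those of the gene's other junctions were fewer in KO. In the other 7 genes the junction with the smallest p lay further from the threshold (adjusted p = 0.999992 for each by diffSpliceDGE). Notch1 junction 14 had a log2 usage change of 0.60, from 35 and 84 reads in KO and 29 and 71 reads in wild type. Kit junction 6 had -1.96, from 0 and 2 reads in KO and 3 and 7 reads in wild type. Notch3 junction 25 had -1.61 (1 and 2 reads in KO, 10 and 4 in wild type), and Ptcra junction 1 had 0.40. The smallest p of Il7r was at junction 3 (0.58), that of Hes1 at junction 1 (0.39) and that of Il2ra at junction 5 (0.32).

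Along Dtx1 the reads per 1000000 junction reads put each KO library below each wild type at 7 of the 9 junctions, all but 1 and 8. These junctions belong to 1 gene in the same libraries, so they are not independent of its lower total in KO. The share of all junctions with this relation is not given here. Junctions 2 to 5 held 2, 1, 0 and 0 reads in KO replicate 1 and 1, 0, 3 and 1 reads in KO replicate 2, against 8, 4, 9 and 8 reads in wild-type replicate 1 and 15, 7, 11 and 7 reads in wild-type replicate 2. Of the reads on known junctions apart from the middle one, the share toward the 5′ end (junctions 1 to 4 of 9) was 19.0% in KO replicate 1 (4 of 21 reads, exact Clopper-Pearson 95% interval 5.45 to 41.9%) and 12.1% in KO replicate 2 (4 of 33, 3.40 to 28.2%). It was 30.1% in wild-type replicate 1 (22 of 73, 19.9 to 42.0%) and 30.3% in wild-type replicate 2 (36 of 119, 22.2 to 39.3%). The KO shares lay below the wild-type shares and the intervals overlapped.

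This share was compared after its values in Dtx1 had been seen, so it is given with no test. Among 7487 genes with at least 4 known junctions and 20 such reads in every library, 15.1% had both KO shares below both wild-type shares and 15.9% had both above. For Dtx1 the mean KO share minus the mean wild-type share was -14.6 percentage points, and 108 genes, or 1.44%, had a difference at least that far below. Dtx1 had as few as 21 such reads in a library, close to the minimum. The genes it is ranked among were not matched to it in depth. Of the 6 members that qualify, 2 were lower in both KO libraries, Dtx1 and Notch1, and 0 were higher. Notch1 had shares of 55.7% and 56.9% in KO and 58.8% and 57.3% in wild type.

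**Figure D4:**
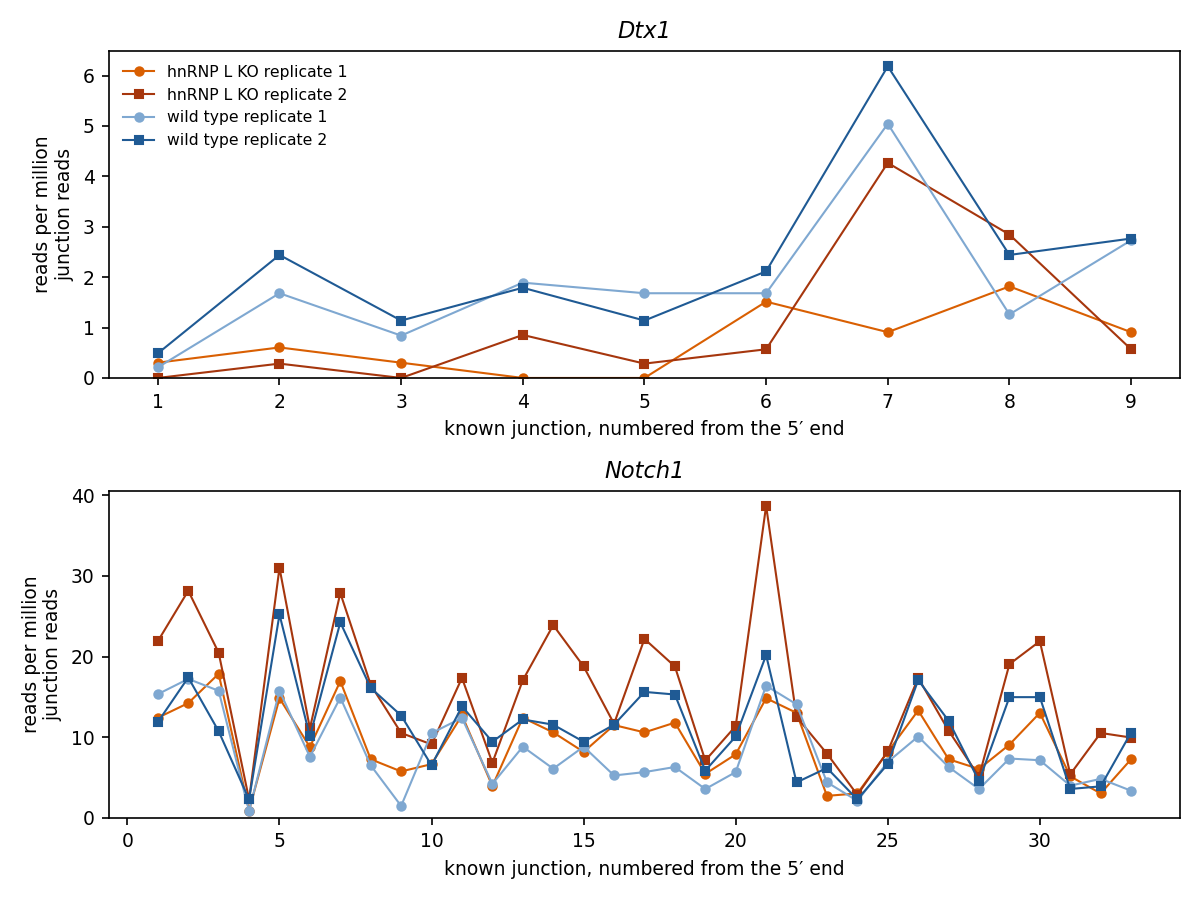
Junction CPM at each known junction of Dtx1 and Notch1, numbered in transcript order, with 1 line per library. Both KO lines of Dtx1 lie below both wild-type lines at junctions 2 to 7 and 9, whereas at Notch1 the highest line is KO replicate 2 at most junctions.

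**Figure D5:**
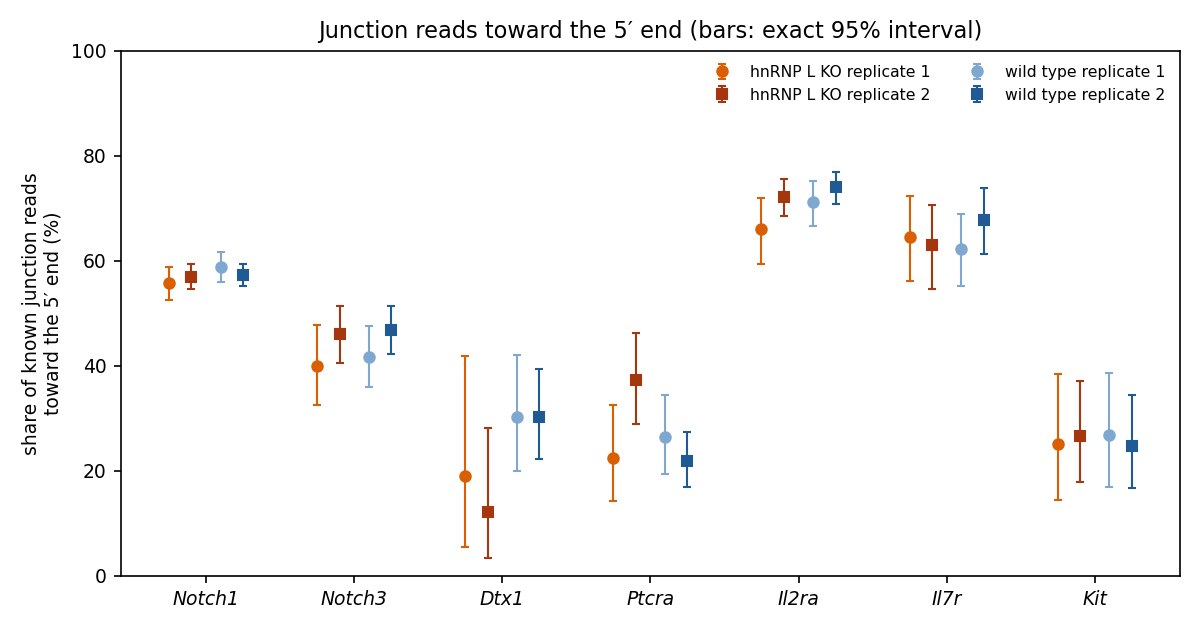
Share of known junction reads toward the 5′ end of 7 members in percent, with 1 point per library and exact 95% intervals. Dtx1 has 19.0% and 12.1% in KO and 30.1% and 30.3% in wild type, with wide intervals from 21 to 119 reads.

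Exon 2 of Ptcra (mm9 chromosome 17, 46895493 to 46895813, 321 nt), which encodes the immunoglobulin-like domain outside the cell, was the 1 member exon with enough reads for a skipping test. The known short form of the transcript joins exon 1 to exon 3, a junction that the deposited tables mark as putative, and its 321 nt length is a multiple of 3. The 3 borders are shown with 15 bases on each side, from the GENCODE M21 transcript in build GRCm38 (transcript strand), because they separate the long form from the short one; capitals mark exon 2.
Ptcra exon 1 to exon 2: aggctctaccatcagGCATCGCTGGCACCC
Ptcra exon 2 to exon 3: CCCTCCAGCTGTCAGgggaatcttcgacag
Ptcra exon 1 to exon 3: aggctctaccatcaggggaatcttcgacag

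The border of exon 1 with exon 2 had 20 and 48 reads in KO and 38 and 56 in wild type, and the border of exon 2 with exon 3 had 11 and 28 in KO and 25 and 51 in wild type. Reads that skip exon 2 numbered 1 and 2 in KO and 1 and 4 in wild type. Every library held at least 1 such read. Inclusion of exon 2 was 93.9% and 95% in KO, against 96.9% and 93.0% in wild type, with means of 94.5 ± 0.750% in KO and 94.98 ± 2.74% in wild type (SD, n = 2 each). The difference of -0.514 percentage points was smaller than the spread within wild type (edgeR unadjusted p = 0.991), and it turned sign with the upstream border alone (0.234), without KO replicate 1 (0.017) and without wild-type replicate 1 (1.43). Over 3137 exons in the test 0 passed by edgeR and 185 had an unadjusted p under 0.05.

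Kit also has a known pair of forms, which differ by 12 nt at the end of exon 9 and thus by a short stretch of the receptor next to the membrane. The border to exon 10 is shown for each from GENCODE M21 in build GRCm38 (transcript strand), since those reads tell the forms apart; capitals mark the bases found only in the long form. This pair was looked up after its values had been seen.
Kit long form: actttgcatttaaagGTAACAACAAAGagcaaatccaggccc
Kit short form: actttgcatttaaagagcaaatccaggccc

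The short form had 0 and 2 reads in KO and 6 and 1 in wild type, and the long form 0 and 0 in KO and 0 and 1 in wild type. Over all 4 libraries 9 of 10 reads were of the short form (90%, exact Clopper-Pearson 95% interval 55.5 to 99.7%). These reads are too few to compare the genotypes.

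Reads on putative junctions of the members were rare. Of 1310 putative junctions listed for the 9 genes 29 had a read, and their 43 reads were 0.356% of the members' junction reads, against 1.16% over all genes. Ptcra's skip of exon 2, which is the known short form described above, was the most read, with 8 reads. Next came an Il2ra junction (mm9 chromosome 2, 11603629 to 11606004) that skips the 72 nt exon 6, with 1 and 1 reads in KO and 0 and 1 in wild type. In Notch1 the most read was 26332013 to 26333400 on chromosome 2, with 2 reads. Notch3 had 2 with 2 reads each, 32269294 to 32283352 and 32287661 to 32295156 on chromosome 17. Kit and Spry1 had at most 1 read on any putative junction, and Dtx1, Hes1 and Il7r had 0.

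The other genes of these pathways were read from 11 lists of 98 distinct genes, of which 93 were tested. Of these 0 passed by edgeR in either direction, 44 had a positive and 49 a negative log2 fold change, and 7 had an unadjusted p under 0.05 (7.53%, against 9.91% of all genes). The median log2 fold change of the 93 was -0.02, against 0.01 over all genes. Both figures lie close to those of the background.

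The Notch ligands were few and low. Of the 4 tested, 3 had a positive and 1 a negative log2 fold change. Jag2, a ligand of the Jagged family, had 6.52 and 8.53 CPM in KO and 5.55 and 4.08 CPM in wild type, so the KO libraries were above the wild types (log2 fold change 0.65, SE 0.25, edgeR adjusted p = 0.486). Dll4, the ligand that thymic epithelium presents to thymocytes, had 0.616 and 3.33 CPM in KO and 1.59 and 1.31 CPM in wild type. The Notch processing list, which holds the secretases and Fringe enzymes that cut and glycosylate the receptors, had 8 higher and 11 lower of 19. Lfng, the Fringe that tunes ligand binding in thymocytes, had 54.8 and 35.9 CPM in KO and 65.5 and 57.2 CPM in wild type (log2 fold change -0.44, SE 0.20). Of the 8 nuclear cofactors, 5 were higher and 3 lower, none past the threshold.

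Of 9 Notch targets in the list, 5 of them members, 5 were higher and 4 lower, with a median log2 fold change of 0.07. The 5 that are members are described above. The other 4 were Hes5, Hey1, Nrarp and Myc, and each of them had more CPM in KO replicate 2 than in KO replicate 1, where 49.1% of all genes did. Myc, which drives the growth of early thymocytes, had 71.8 and 106 CPM in KO and 67.7 and 73.6 CPM in wild type (log2 fold change 0.33, SE 0.18). Its maximum lay in KO replicate 2, as did those of most members, namely Notch1, Notch3, Hes1, Ptcra, Il2ra and Kit.

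Among the 12 genes of IL-7 and IL-2 signalling, 6 were higher and 6 lower. Il2rg, the common gamma chain that pairs with both Il7r and the IL-2 receptor, had 203 and 233 CPM in KO, against 154 and 158 CPM in wild type. The KO libraries lay above the wild types, and the log2 fold change of 0.48 (SE 0.12, unadjusted p = 0.00509) did not pass after edgeR's adjustment (adjusted p = 0.414). Of the 8 genes of Kit signalling, 4 were higher and 4 lower, and the smallest p on the lower side was that of Pik3r1, a regulatory subunit of PI3-kinase, at 302 and 231 CPM in KO and 327 and 386 CPM in wild type (log2 fold change -0.42, SE 0.17).

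The Sprouty and Spred inhibitors to which Spry1 belongs had 1 higher and 5 lower of 6, with a median log2 fold change of -0.27. Spred1 had 34.1 and 30.5 CPM in KO, against 43.0 and 47.2 CPM in wild type (log2 fold change -0.48, SE 0.13, unadjusted p = 0.00587, edgeR adjusted p = 0.414). Its groups were separate, as were those of Spry1. Of the 8 genes of the pre-T cell receptor, 2 were higher and 6 lower. Cd3e, a CD3 chain, had 226 and 357 CPM in KO and 120 and 178 CPM in wild type (log2 fold change 0.97, SE 0.29, edgeR adjusted p = 0.470), while Cd247, the zeta chain, had 537 and 350 CPM in KO and 609 and 618 CPM in wild type (-0.47). Cd3e and Cd247 were named for the smallest p in each direction, so their opposite signs were set by that choice. Both KO libraries lay above both wild types for 23.3% of all genes and below them for 21.4%. The other CD3 chains, Cd3g and Cd3d, had log2 fold changes of -0.05 and -0.30.

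The E proteins and Id factors, which control early T cell development, had 4 higher and 5 lower of 9. Id1, an inhibitor of E proteins, had 1.01 and 0.840 CPM in KO, against 2.21 and 1.72 CPM in wild type (log2 fold change -1.08, SE 0.36). The early progenitor list, of transcription factors and markers of cells that precede T lineage commitment, had 7 higher and 3 lower of 10, with a median log2 fold change of 0.16, and none passed.

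Marker lists of cell types differed between the KO mice as well. The list of 10 double-negative markers holds all 9 members and Cd44, so it gives no separate view of them, and Cd44 had 51.6 and 44.0 CPM in KO and 52.1 and 53 CPM in wild type. Of the 9 double-positive markers 1 was higher in KO replicate 2 than in the other KO library. Of 11 thymic epithelial and stromal markers 10 were higher in KO replicate 2, where 49.1% of all genes were. All 11 summed to 231 and 270 CPM in KO and to 226 and 240 CPM in wild type. Those 10 alone summed to 42.1 and 97.45 CPM in KO and to 54.8 and 63.4 CPM in wild type. Since they are the markers that were higher in KO replicate 2, the direction of their sum in KO was set by that choice. Pecam1, the remaining marker and the most abundant, had 189 and 172 CPM in KO and 171 and 177 CPM in wild type. Psmb11, the thymoproteasome subunit of cortical epithelium, had 3.98 and 15.8 CPM in KO and 9.12 and 5.82 CPM in wild type. Foxn1, the master regulator of thymic epithelium, had 1.34 and 3.004 CPM in KO and 1.16 and 1.63 CPM in wild type. The sum of the erythroid markers went the other way, at 287 and 60.05 CPM in KO and 87.0 and 78.1 CPM in wild type. Most of it came from Alas2 (118 and 23.6 CPM in KO) and Hbb-b1 (162 and 30.9). Slc4a1 was nearly equal in KO, at 4.42 and 4.13 CPM. Of the 5 tested 1, Epor, was higher in KO replicate 2, at 0.145 and 0.420 CPM. No listed marker was at 0 in all libraries, and the part of these cells in the members' values was not tested.

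The genes whose pattern over the 4 libraries was most like a member's were found by the distance between mean-centred log2 CPM profiles among all tested genes. Over 4 libraries such a likeness is a description only. For Il2ra they were Gfra1 (0.0964) and Fbn1 (0.141), and the nearest member was Notch3 (0.336). Hes1 had Gucy1a2 (0.0583) and Pecr (0.0823), with Il2ra (0.385) the nearest member, while Ptcra and Kit were nearest to each other (0.200). Many other genes lay within the distance of the nearest member, 31 for Il2ra, 165 for Hes1, 289 for Ptcra, 968 for Kit and 1890 for Dtx1. Notch1 had Hoxa5 (0.0506) and Lamb1 (0.0719), and Notch3 had Mc1r (0.0459) and Lrch2 (0.0911). Ptcra had Crybg3 (0.0297) and Cdh3 (0.0530), and Kit had Tmem48 (0.0233) and 6820431F20Rik_dup1 (0.0317). Il7r had Fam113b (0.0219) and Rel (0.0261), and Spry1 had Rpl34 (0.0504) and Prmt1 (0.0569). Of the 9, Dtx1 had the greatest distance to its nearest gene and to its nearest member, with 4930404N11Rik (0.168), Leprel2 (0.178) and Notch3 (0.658).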

How the data were processed

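For each library the authors deposited raw read counts per RefSeq transcript, their ratio to the transcript's length, and RPKM values scaled by the mapped reads that the file headers state. A deposited table per library lists raw counts for exon-exon junctions, each known or putative. Per the file headers, counting took primary alignments whose mapping quality was 10 or higher. The genome build is mm9, per the submitters' processing notes. The aligner is not given in the sources used here, nor is strand handling. Mapped reads numbered 69061265 and 75485061 in KO and 99782558 and 122619310 in wild type, per the file headers.

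The transcript with most reads was kept for each symbol, and no member transcript overlaps another listed gene. KO was tested over wild type per gene by edgeR 4.0.16 (R 4.3.3; robust quasi-likelihood fit, TMM scaling, filterByExpr, Benjamini-Hochberg adjustment over all tested genes, threshold 0.05). CPM values are TMM-scaled. DESeq2 1.42.0 and limma 3.58.1 were alternatives, beside other scalings, filters, a replicate block and each library left out. Usage was tested with diffSpliceDGE for junctions of 10 reads or more in genes with several of them, and its coefficients were converted to log2. Exon inclusion is the mean of both inclusion junctions over that mean plus skipping reads. The tests were tested on simulated data. Intervals are exact 95% intervals. Figures and counts used Python 3.11.15.

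The 9 members and all lists were chosen with earlier results of these data known. Named are all 9 members and, where it helps, the list gene with the smallest p in each direction. Other list genes, such as Dll4, Psmb11 and Foxn1, were named outside this rule. Junctions named are, per member, the one with the smallest p, single-exon skips with at least 5 reads, and the most read putative junction. The labels do not say that replicate numbers pair mice.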

Additional observations from a re-analysis of the deposited data

How the results depend on the processing

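Members, member junctions and member exons past the threshold numbered 0 under every alternative run. Over all genes, where edgeR called 1, DESeq2 called 108, edgeR with no filter 62, without small RNA genes 3, and limma-voom, upper-quartile scaling, no robust moderation and summed transcript rows 0 each. With 1 library left out the count ran from 2 (without wild-type replicate 1) to 394 (without KO replicate 1). Over all junctions, where 4 passed, limma-voom called 1, known junctions alone 2, and fits with 1 library left out 3 to 12. With a replicate block, 121 genes, 10 junctions and 0 members passed. The adjusted p of Dtx1 was 0.0894 by edgeR with the block and 0.254 by DESeq2, against 0.470 by edgeR without the block. Same-numbered libraries deviated together with a correlation of 0.28, but the labels do not pair them. The block could not be added to the exon test, which has a term per library. Log2 fold changes with 1 library left out ran from -0.12 to 0.64 for Notch1, -0.56 to 0.34 for Notch3, -0.65 to 0.82 for Hes1, -0.25 to 0.33 for Ptcra, -0.70 to 0.66 for Il2ra, -0.057 to 0.36 for Il7r and -0.16 to 0.25 for Kit. Upper-quartile scaling turned Notch3 to 0.027. The Ptcra exon difference was 0.234 percentage points from the upstream border alone and ran from -2.45 to 1.43 with 1 library left out; the fit without wild-type replicate 2 gave no test for it. Lowering the minimum for the 5′ share to 10 reads, chosen after seeing the data, left 197 of 8102 genes (2.43%) at or below Dtx1. Depth limits the junction results of Hes1, Spry1, Dtx1 and Kit.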

Other observations

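Myeloid markers, which belong to none of the pathways above, summed to 168 and 165 CPM in KO, against 148 and 145 CPM in wild type. All 8 tested had a positive log2 fold change, with a median of 0.34. B cell markers summed to 42.4 and 35.8 CPM in KO and to 38.7 and 39.4 CPM in wild type, and markers of gamma-delta and innate-like T cells to 476 and 403 CPM in KO and to 513 and 516 CPM in wild type. None of these lists held a gene past the adjusted threshold.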
